A study of Homo sapiens with 7 samples.

Results

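The TMPRSS2 locus was examined here as the peaks whose midpoint lay on chromosome 21 between 42750000 and 42960000 (build hg19), a window of 210 kb chosen by position to hold TMPRSS2 and its upstream androgen-responsive enhancer. Peaks of the 7 deposited lists that overlapped by at least 1 bp were joined, which gave 18 sites from 47 peaks, out of 193692 such sites over the genome. The lists came from chromatin immunoprecipitation sequencing, in which DNA bound by a protein is crosslinked to it, pulled down with an antibody and sequenced, and regions with more reads than expected are listed as peaks. Cells were of 2 established lines of human prostate cancer, LNCaP and 22Rv1, which the labels write as CWR22-Rv1, and every group held 1 library. The 22Rv1 groups for FOXA1 were shSETD7 (a short hairpin against SETD7), shCTL (the control hairpin) and vehicle, and SETD7 itself was mapped in vehicle cells. The LNCaP groups, all for FOXA1 and all treated for 4 hours, were GSK2879552 with PFI-2 (called the combination), GSK2879552 alone and DMSO. That the first of these received PFI-2 rests on its title, since its treatment label reads as with or without PFI-2. Both lines were grown in medium with 10% fetal bovine serum and no androgen treatment is named in the labels. All 65461 peak names of the vehicle FOXA1 list carry the tag siNTC, which its labels do not use, so that library is vehicle only as labelled.

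TMPRSS2 encodes a membrane-bound serine protease of luminal prostate epithelium and is a classic target of the androgen receptor, which acts on it in large part through an enhancer upstream of the gene. In many prostate tumours its promoter is fused to the oncogene ERG, although neither of these lines carries that fusion. FOXA1 is a forkhead pioneer factor that binds nucleosome-bound DNA and opens enhancers for the androgen receptor. SETD7 is a lysine methyltransferase inhibited by PFI-2, and GSK2879552 inhibits LSD1, a lysine demethylase. TMPRSS2 is transcribed toward lower coordinates, so its upstream side lies at higher ones. In the gene order of RefSeq (GRCh38.p14, used for order only) its neighbour toward lower coordinates is MX1, which encodes an interferon-induced antiviral GTPase, and the one toward higher coordinates is the long non-coding RNA gene LOC124905021. Gene boundaries of build hg19 were not used here, so no site was assigned to an exon, an intron, a promoter or the enhancer.

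FOXA1 peaks lay across the locus in 5 of the 6 FOXA1 lists, and the vehicle list held the fewest. The window held 9 peaks with shSETD7, 9 with shCTL and 2 with vehicle in 22Rv1, and 10 with the combination, 8 with GSK2879552 and 9 with DMSO in LNCaP. No SETD7 peak was found in it. Read depth is unknown from peak lists. With 1 library per group no difference between conditions was tested, and intervals given below are exact (Clopper-Pearson) 95% intervals that cover counting error only. Each peak carries the authors' own score, whose definition is not given. A score is therefore given as its percentile, the percentage of peaks in the same list with a lower score, ties counting as 1/2. Percentiles from lists of different lengths show no change in binding.

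**Figure D1:**
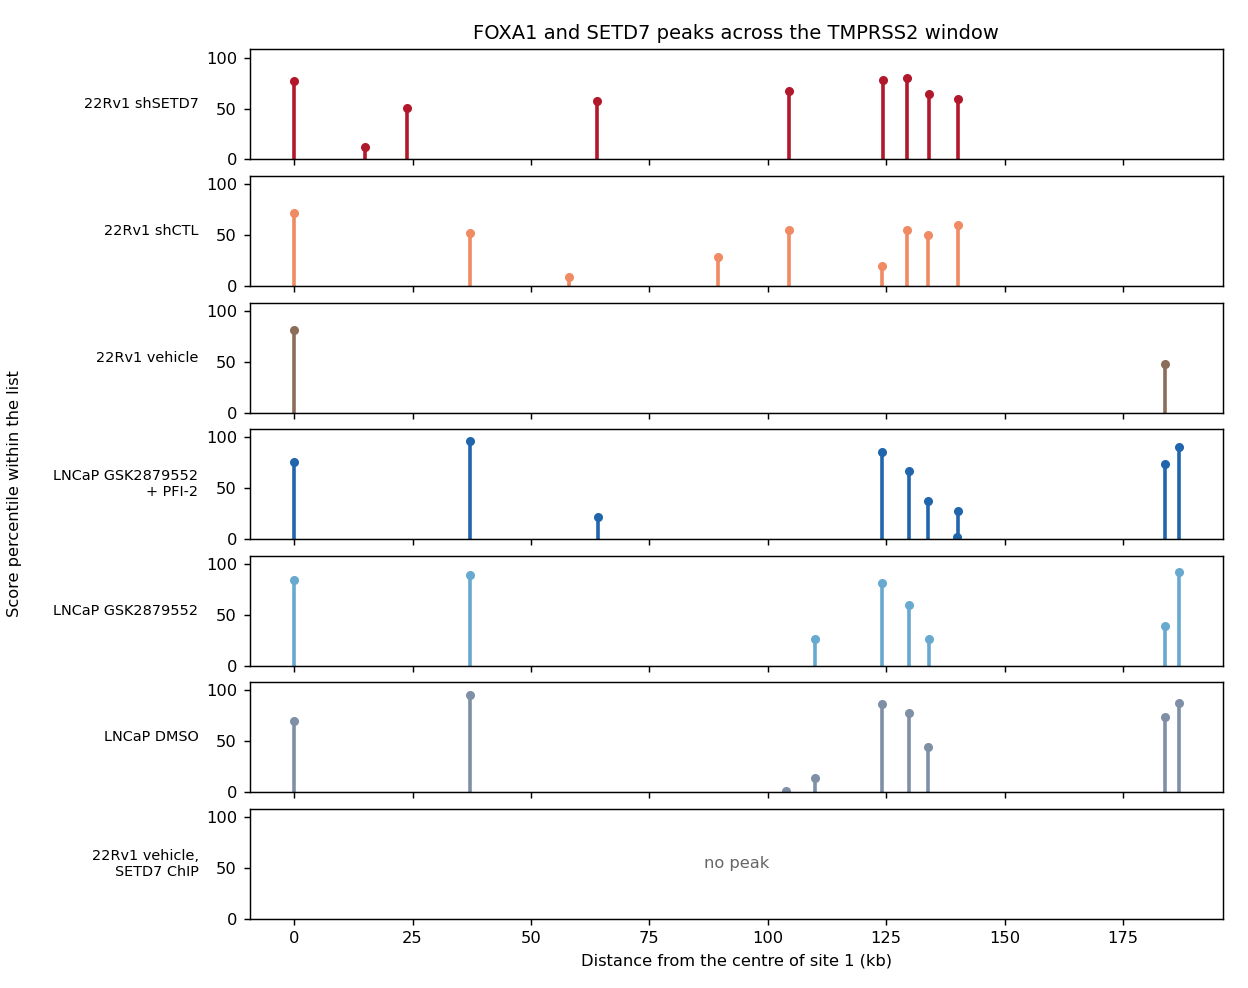
Peaks of each list by distance from the centre of site 1 (x axis, kb) and by score percentile within their own list (y axis, percent). All 6 FOXA1 lists have a peak at site 1, and the vehicle list has no further peak until site 17.

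A single site, 1 of 18 or 5.56% (0.141 to 27.3), was found in all 6 FOXA1 lists, against 8.43% of the 173005 merged FOXA1 sites of the genome. Sites found in every FOXA1 list but vehicle numbered 2, or 11.1% (1.38 to 34.7), against 1.41% of genome sites. Sites found in only 1 FOXA1 list numbered 6, or 33.3% (13.3 to 59.0), against 38.7%. Sites found in both lines numbered 7, or 38.9% (17.3 to 64.3), against 29.4%, while 6 were found only in 22Rv1 and 5 only in LNCaP. All of these intervals included the genome share, the one for every list but vehicle only just.

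**Figure D2:**
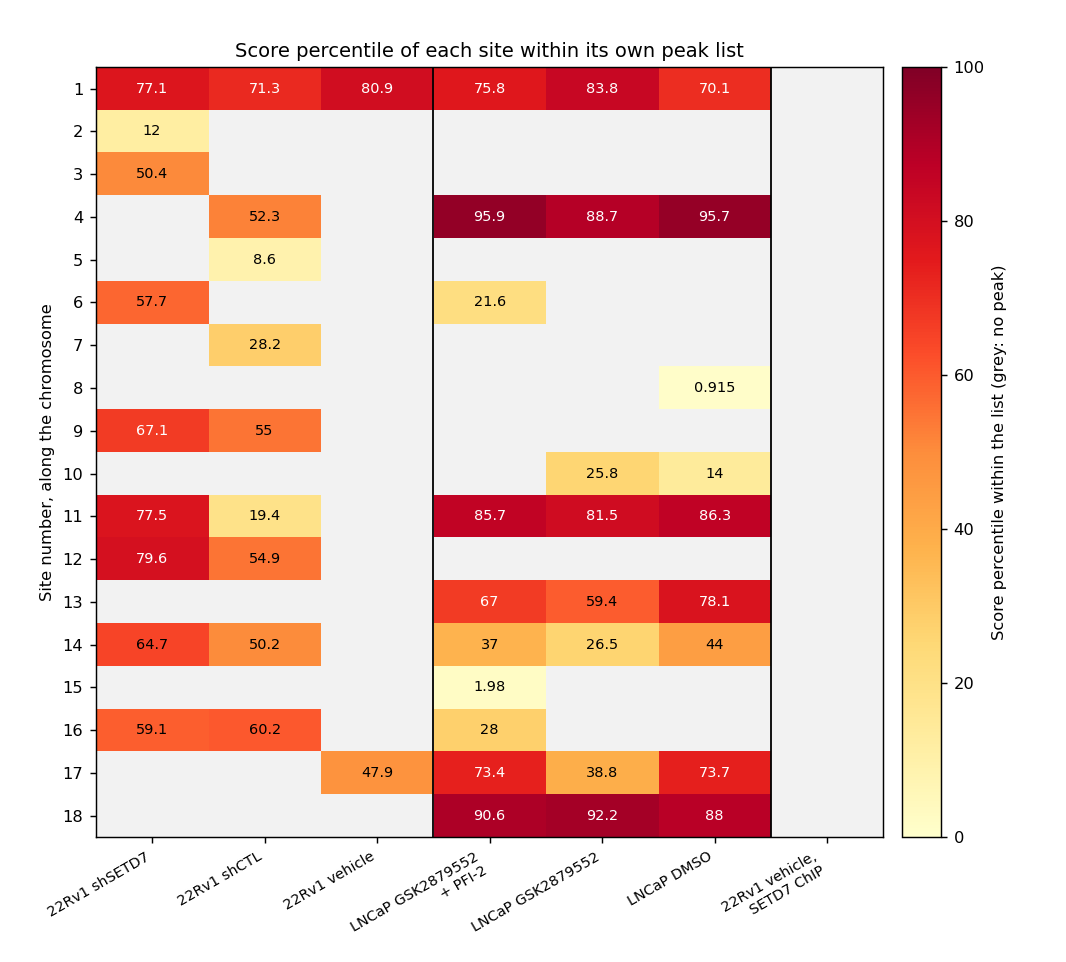
Score percentile (colour and number, percent) of the 18 sites, numbered along the chromosome (rows), in each peak list (columns); grey cells hold no peak. Site 1 fills all 6 FOXA1 columns, sites 4, 11 and 18 reach the highest percentiles in LNCaP, and the SETD7 column is empty.

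Site 1, from 42768411 to 42768833, lay nearest the lower edge of the window. Its percentile was 77.1 with shSETD7, 71.3 with shCTL and 80.9 with vehicle in 22Rv1, and 75.8 with the combination, 83.8 with GSK2879552 and 70.1 with DMSO in LNCaP. It was in the higher-scoring 50% of every FOXA1 list and was the highest-scoring peak of the window in the shCTL and vehicle lists. Midpoints of the 6 peaks lay within 59 bp of each other. The site lies on the lower side of the window, away from the upstream side of TMPRSS2. In the gene order MX1 and then MX2 follow on that side, and the site was not placed relative to either.

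The sites found in every FOXA1 list but vehicle were site 11, from 42892484 to 42893042, and site 14, from 42902314 to 42902725. Site 11 had percentiles of 77.5 with shSETD7 and 19.4 with shCTL in 22Rv1, and of 85.7 with the combination, 81.5 with GSK2879552 and 86.3 with DMSO in LNCaP. It was thus a high-scoring site in 4 of the 5 lists and a weak one in the shCTL list, where it ranked 67568 of 83994 peaks. Site 14 had percentiles of 64.7 with shSETD7 and 50.2 with shCTL, and of 37.0 with the combination, 26.5 with GSK2879552 and 44.0 with DMSO. All of its LNCaP percentiles were below its 22Rv1 ones.

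Sites 11 to 16 formed the densest stretch of the locus, with 6 sites between 42892484 and 42909026, separated by 8 to 5717 bp. Within it the lines differed in where the peaks lay. Site 12, from 42897788 to 42898133, was found with shSETD7 (percentile 79.6) and shCTL (54.9) and in no LNCaP list. Site 13, from 42898186 to 42898606, was found with the combination (67), GSK2879552 (59.4) and DMSO (78.1) and in no 22Rv1 list. Only 52 bp separated these neighbours, and site 12 was the highest-scoring peak of the window in the shSETD7 list. With peaks merged within 200 bp they became 1 site found in both lines. Whether each line binds its own position or whether peak ends fell differently cannot be read from peak lists.

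Other sites of the stretch lay equally close together. Site 16, from 42908662 to 42909026, had percentiles of 59.1 with shSETD7, 60.2 with shCTL and 28.0 with the combination, and in lists shortened to 63952 peaks of 59.1 with shSETD7, 47.8 with shCTL and 5.64 with the combination. Site 15, from 42908443 to 42908653, lay 8 bp before it and was found only with the combination, at a percentile of 1.98. Outside the stretch, site 9, from 42872894 to 42873305, was found with shSETD7 (67.1) and shCTL (55.0), and site 8, from 42872437 to 42872677, lay 216 bp before it and was found only with DMSO (0.915). Sites 8 and 15 were thus among the weakest peaks of their lists, next to sites that both hairpin libraries of 22Rv1 held.

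**Figure D3:**
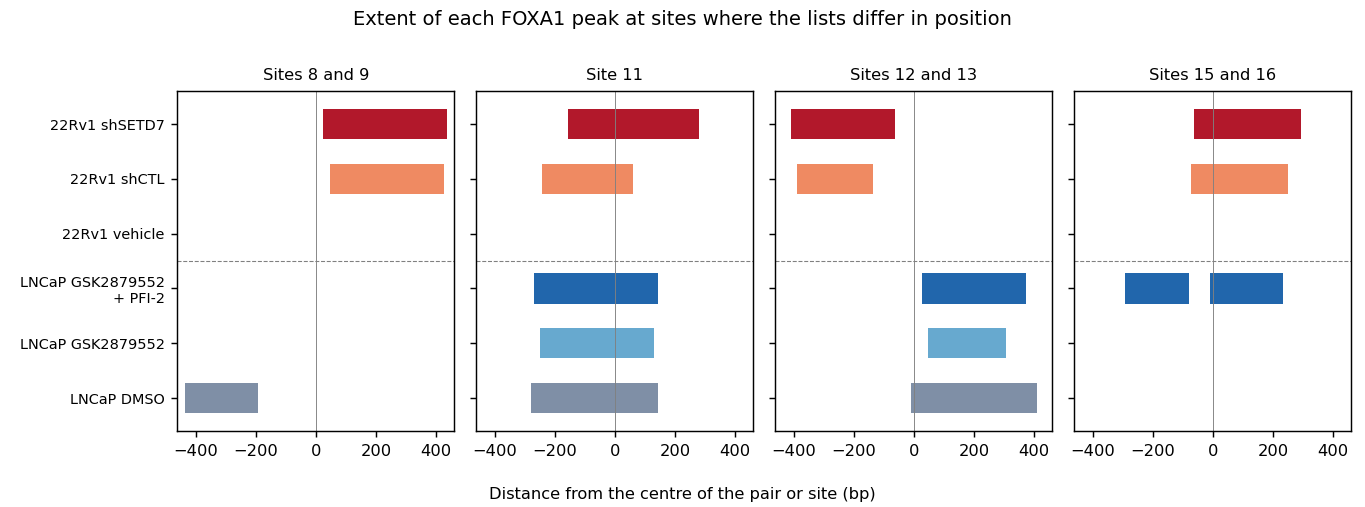
Extent of each FOXA1 peak (bars, 1 row per list) by distance from the centre of the pair or site (x axis, bp). At sites 12 and 13 the 22Rv1 bars and the LNCaP bars lie side by side without overlap, and at site 11 the shSETD7 bar is shifted from the others.

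The highest within-list percentiles of the locus were those of sites 4 and 18 in the LNCaP lists. Site 4, from 42805497 to 42805982, had percentiles of 95.9 with the combination, 88.7 with GSK2879552 and 95.7 with DMSO. In 22Rv1 it was found with shCTL alone, at 52.3, and the nearest site on its lower side, site 3, was 12839 bp away. In both the combination and DMSO lists site 4 was the highest-scoring peak of the window, ranking 3442 of 83833 and 3473 of 80205. Its presence pattern, all LNCaP lists and shCTL only, was shared by 3.04% of merged FOXA1 sites.

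At the upper edge, site 18, from 42955144 to 42955523, was found only in LNCaP, with percentiles of 90.6 with the combination, 92.2 with GSK2879552 and 88.0 with DMSO. In the GSK2879552 list it was the highest-scoring peak of the window. Site 17, from 42952187 to 42952563, had percentiles of 73.4 with the combination, 38.8 with GSK2879552 and 73.7 with DMSO, and was the only other vehicle peak of 22Rv1, at 47.9. It was absent with shSETD7 and shCTL. The percentile with GSK2879552 was below those with the combination and DMSO at sites 4, 11, 13, 14 and 17 and above them at sites 1 and 18. With all FOXA1 lists shortened to 63952 peaks it was still below both at sites 4 and 17 and above both at sites 1 and 18, and lay between them at sites 11, 13 and 14. The order among the 3 LNCaP lists was thus not uniform over the locus.

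The remaining sites were found in 1 or 2 lists and, with few exceptions, scored low. With shSETD7 alone were site 2, from 42783459 to 42783878 (percentile 12), and site 3, from 42792268 to 42792657 (50.4). With shCTL alone were site 5, from 42826572 to 42826798 (8.6), and site 7, from 42858024 to 42858299 (28.2). Such peaks of a single hairpin library were common, as shSETD7-only sites made up 12.4% and shCTL-only sites 11.3% of merged FOXA1 sites. Site 6, from 42832355 to 42832791, was found with shSETD7 (57.7) and the combination (21.6), with midpoints 134 bp apart, a pattern seen at 0.124% of merged sites. Site 10, from 42878559 to 42878777, was found with GSK2879552 (25.8) and DMSO (14), a pattern seen at 0.415%.

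The shSETD7 and shCTL lists address which FOXA1 sites remain when SETD7 is reduced. Sites 1, 9, 11, 12, 14 and 16 were found in both. Of the 9 shCTL peaks of the locus, 6 overlapped an shSETD7 peak, or 66.7% (29.9 to 92.5), against 44.5% of the whole shCTL list and 39.4% on chromosome 21. For whole-list peaks in the same score deciles as those of the locus the share was 40.3%. In reverse, 6 of 9 shSETD7 peaks overlapped an shCTL peak, or 66.7% (29.9 to 92.5), against 58.2% of the whole list and 70.8% in the same score deciles. The intervals included each of these shares, so with 9 peaks no difference between the locus and the rest of the list was detectable.

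The shCTL peaks without an shSETD7 peak were sites 4, 5 and 7, at percentiles of 52.3, 8.6 and 28.2. Over the whole list, 44.9%, 19.0% and 28.1% of shCTL peaks in their score deciles were found with shSETD7. Sites 2, 3 and 6 were found with shSETD7 and with neither shCTL nor vehicle, and 19.1%, 66.2% and 66.2% of shSETD7 peaks in their deciles were found with shCTL. The lists thus differed by 3 peaks of the locus in each direction. How far the hairpin lowered SETD7 was not analysed here.

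Peaks at the 6 shared sites were wider with shSETD7 than with shCTL in 6 of 6 cases, against 58.3% of overlapping pairs over the whole list. Median widths of the whole lists were 357 bp with shSETD7 and 340 bp with shCTL. Whether the 6 pairs differ from the whole list was not tested. Widths were 401 bp with shSETD7 and 318 bp with shCTL at site 1, and 346 bp with shSETD7 and 251 bp with shCTL at site 12. At site 14 they were nearly equal, 271 bp with shSETD7 and 268 bp with shCTL. The largest difference in position was at site 11, where the shSETD7 peak (42892607 to 42893042) had its midpoint 154 bp higher than the shCTL peak (42892520 to 42892821). Of all overlapping pairs 12.8% were at least that far apart. Those peaks shared 215 bp, less than 50% of the shSETD7 peak, so under a rule of reciprocal 50% overlap 5 of the 9 shCTL peaks were kept.

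**Figure D4:**
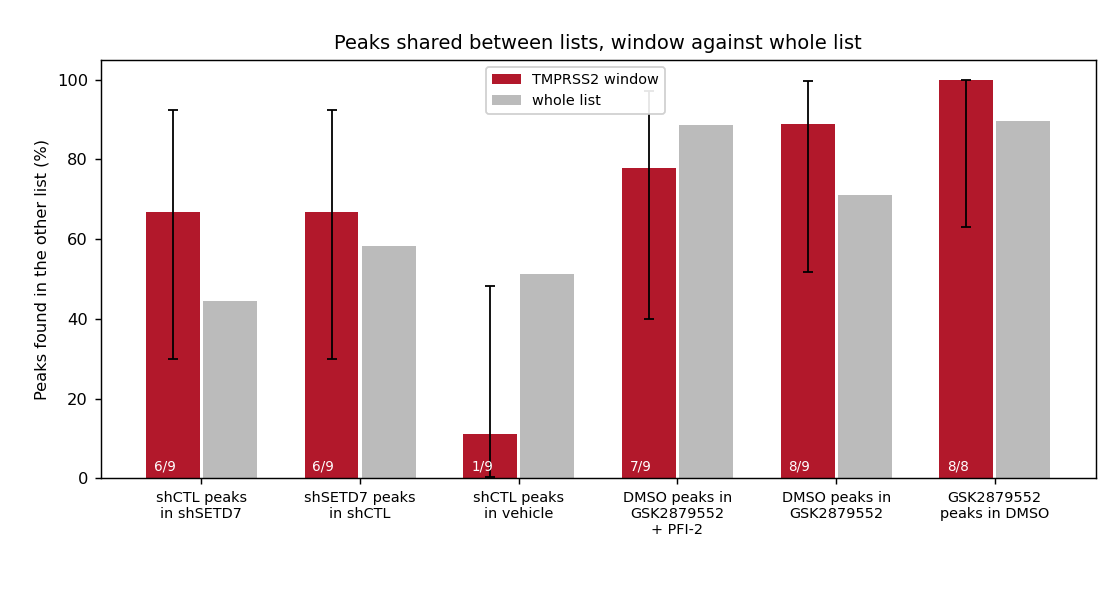
Percentage of peaks of 1 list that overlap a peak of another (y axis) for the TMPRSS2 window (red, with exact 95% intervals and counts) and the whole list (grey). In the window 1 of 9 shCTL peaks had a vehicle peak, whereas 6 of 9 had an shSETD7 peak.

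Most FOXA1 sites of the locus were missing from the vehicle list. Of the 9 shCTL peaks, 1 overlapped a vehicle peak, or 11.1% (0.281 to 48.2), against 51.3% of the whole shCTL list, 50.1% on chromosome 21 and 45.6% in the same score deciles. Of the 9 shSETD7 peaks, 1 overlapped a vehicle peak, or 11.1% (0.281 to 48.2), against 43.7% of the whole list and 48.7% in the same deciles. The intervals lay below 51.3% and 48.7% and included 45.6% and 43.7%. For the shSETD7 peaks missing from vehicle, the whole-list share in their score decile ran from 12.2% (site 2) to 66.8% (sites 11 and 12). For the missing shCTL peaks it ran from 13.6% (site 5) to 62.4% (site 16).

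Between sites 1 and 17 the vehicle list held no peak for 184 kb. By count, 3.05% of the gaps between neighbouring peaks of that list were as long or longer. Long gaps cover a larger share of the genome than of the count of gaps. The longest gap between neighbouring peaks of the window was 40.1 kb with shSETD7, 36.8 kb with shCTL, 59.7 kb with the combination, 72.7 kb with GSK2879552 and 66.5 kb with DMSO. For these lists the share of gaps as long or longer ran from 13.6% (DMSO) to 33.8% (shSETD7). Gaps that ran past an edge of the window were left out, and with shSETD7 and shCTL such a gap was longer. After site 16 their next peaks began at 43025675 with shSETD7 and 43025682 with shCTL, above the window. Beside the window the vehicle list was not as sparse. In the 1 Mb before it there were 26 peaks with shSETD7, 30 with shCTL and 30 with vehicle, and in the 1 Mb after it 22 with shSETD7, 24 with shCTL and 15 with vehicle. Per 100 kb there were 4.29 peaks in the window and 2.4 in the flanks with shSETD7, 4.29 and 2.7 with shCTL, and 0.952 and 2.25 with vehicle. The part that the sample's identity, given the siNTC tag in its peak names, or its depth plays in this was not tested.

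**Figure D5:**
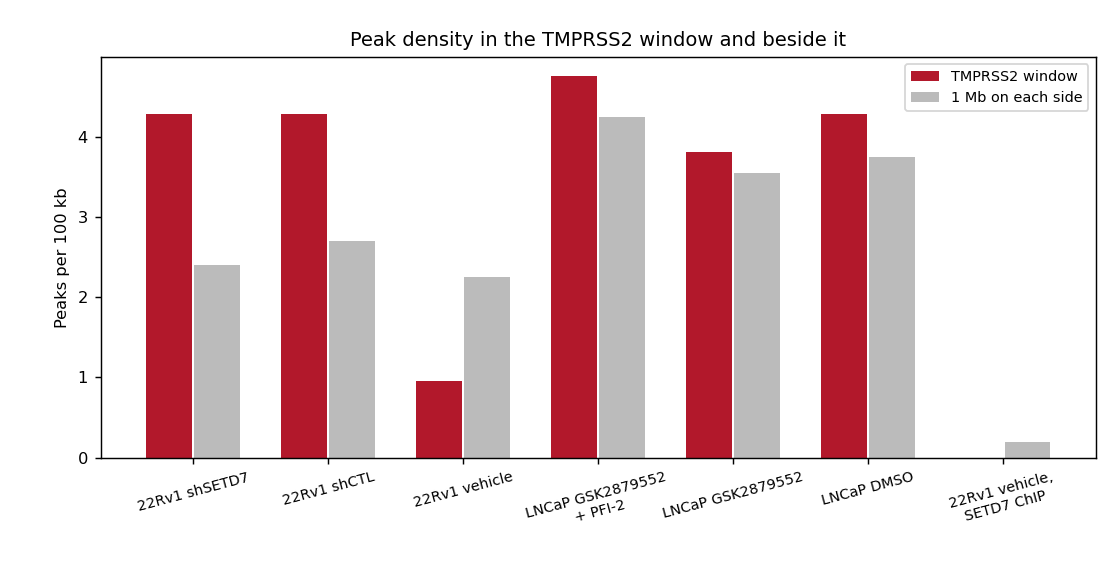
Peaks per 100 kb (y axis) in the TMPRSS2 window (red) and in 1 Mb on each side of it (grey) for each list. The vehicle FOXA1 list has 0.952 in the window and 2.25 beside it, while the other 5 FOXA1 lists are at least as dense in the window as beside it.

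In LNCaP the comparison with DMSO addresses which FOXA1 sites respond to LSD1 inhibition. Of the 9 DMSO peaks, 8 overlapped a GSK2879552 peak, or 88.9% (51.8 to 99.7), against 71.2% of the whole DMSO list and 80.5% in the same score deciles. The exception was site 8, in the lowest decile of the DMSO list, where 23.8% of peaks had a GSK2879552 peak. All 8 GSK2879552 peaks overlapped a DMSO peak, 100% (63.1 to 100), against 89.6% of that list. Both intervals included the whole-list shares.

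Peaks were narrower with GSK2879552 than with DMSO at 8 of 8 shared sites, as were 92.9% of overlapping pairs over the whole list, so this was a property of the list. At site 13 the width was 259 bp with GSK2879552 and 421 bp with DMSO. At site 11 it was 380 bp with GSK2879552 and 421 bp with DMSO. Midpoints of these pairs differed by a median of 12.8 bp and at most 68 bp, at site 14.

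The combination, if treated as its title says, addresses what SETD7 inhibition adds to LSD1 inhibition. Of the 9 DMSO peaks, 7 overlapped a combination peak, or 77.8% (40.0 to 97.2). The share was 88.6% of the whole DMSO list and 90.9% in the same score deciles. Of the 10 combination peaks, 7 overlapped a DMSO peak, or 70.0% (34.8 to 93.3). Here the share was 84.8% of the whole list and 87.1% in the same deciles. The same 7 sites (1, 4, 11, 13, 14, 17 and 18) were found in all 3 LNCaP lists. Accordingly 7 of 10 combination peaks overlapped a GSK2879552 peak, 70.0% (34.8 to 93.3) against 69.9% of the list, and 7 of 8 GSK2879552 peaks overlapped a combination peak, 87.5% (47.3 to 99.7) against 92.0%. In the same deciles those whole-list shares were 75.5% and 94.5%. Each interval included its whole-list and same-decile shares.

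Site 8, the single DMSO site missing with GSK2879552, was also missing with the combination. Its DMSO percentile was 0.915, and 55.3% of DMSO peaks in its score decile had a combination peak. A single weak peak does not show whether the combination brings back sites missing with GSK2879552. Site 10 was present with GSK2879552 and missing with the combination. In its score deciles 83.7% of GSK2879552 peaks and 67.3% of DMSO peaks had a combination peak. The peaks of the combination found with neither GSK2879552 nor DMSO were sites 6, 15 and 16, at percentiles of 21.6, 1.98 and 28.0. Over the whole list, 43.9%, 20.5% and 43.9% of combination peaks in their score deciles were found with GSK2879552. With DMSO the shares were 70.7%, 47.3% and 70.7%. In 22Rv1, site 6 was found with shSETD7 only and site 16 with both shSETD7 and shCTL. Combination peaks were wider than the GSK2879552 peaks they overlapped at 7 of 7 sites, against 94.7% of pairs over the whole list. At site 4 the widths were 420 bp with the combination, 402 bp with GSK2879552 and 486 bp with DMSO.

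Between the lines, 3 of 9 shSETD7 peaks overlapped an LNCaP DMSO peak, or 33.3% (7.49 to 70.1), against 34.8% of the whole list. For shCTL it was 4 of 9, or 44.4% (13.7 to 78.8), against 45.2%. Both vehicle peaks did, 100% (15.8 to 100), against 48.3%. Of the 9 DMSO peaks, 3 overlapped an shSETD7 peak, or 33.3% (7.49 to 70.1), against 28.0%, and 4 an shCTL peak, or 44.4% (13.7 to 78.8), against 47.8%. All of these intervals included the whole-list share, so no difference between the locus and other sites was detectable.

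SETD7 was not found at the locus in vehicle 22Rv1 cells. None of the 25526 SETD7 peaks lay in the window, and a count of 0 allows up to 0.0118% of the list, taken as 3 peaks. The nearest SETD7 peaks ended 102 kb before the window (42648051 to 42648329) and began 266 kb after it (43226233 to 43226499), and the 1 Mb on either side held 3 and 1. Of the 18 sites, 0 had a SETD7 peak (0 to 18.5%), and 2.78% of merged FOXA1 sites over the genome had one, so an absence from 18 sites was not informative at this number.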

How the data were processed

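The deposited files are peak lists on build hg19, 1 per library, with 1 whole-number score per peak that is the authors' own. Tools named in the submitters' processing notes are MACS2 2.1.4, BWA 0.7.17-r1188, FastQC 0.11.9 and SAMtools 1.9. The settings, the peak threshold and an input control were not given in the sources used here. Per the labels' protocols, cells were crosslinked with 1% formaldehyde.

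Groups were taken from sample titles. All listed peaks were on chromosomes 1 to 22, X or Y. Peaks were shared when they overlapped by at least 1 bp. Score deciles are 10 classes of a list by percentile; peaks with tied scores share a class, so the classes differ in size. The whole-list share in the same deciles is the mean of each locus peak's decile share. The overlap and merging code was tested on simulated peaks and gave the counts of bedtools 2.31.1. Alternatives were other overlap and merging rules, lists cut to equal size or to their higher-scoring 50%, and leaving out the vehicle list. Every site of the window was named. A search for forkhead and androgen receptor motifs had been planned and was not run, as sequence of build hg19 was not used here; TMPRSS2 was not matched among the RefSeq promoters. The locus and comparisons were chosen with earlier results of these data known. Computations used scipy 1.17.1, pandas 2.3.3 and numpy 2.4.6 in Python 3.11.15; figures used matplotlib 3.10.9.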

Additional observations from a re-analysis of the deposited data

How the results depend on the processing

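Of 54 alternatives over 11 results, 49 left the value inside the interval of the reported one, or the count within 1.5 times of it, 4 did not, and 1, for the median percentile, has no such interval. The intervals are wide, such as 29.9 to 92.5 for shCTL peaks kept with shSETD7. The count of sites with a SETD7 peak could only be 0, as no such peak lay in or near the window. Staying inside these limits therefore says little about how stable the results are. DMSO peaks of the locus kept with GSK2879552 (88.9%) came to 100% with equal-sized lists, 7 of 7, as weak DMSO peaks were left out. DMSO peaks kept with the combination (77.8%) came to 100% in the higher-scoring 50% of each list, 6 of 6. Without the vehicle list, an alternative chosen after seeing the data, sites found in all remaining FOXA1 lists numbered 3, and 4 with peaks also merged within 200 bp, in place of 1. The median percentile of the 47 peaks was 60.2. In FOXA1 lists of 63952 peaks 41 remained, with a median of 62.5 there and 67.1 in the lists as deposited, and 10 of them were lower by more than 10 points. The percentile came to 5.67 in place of 28.2 at site 7 with shCTL, and with the combination to 17.4 in place of 37.0 at site 14 and 5.64 in place of 28.0 at site 16. The order of 2 lists turned at 5 places: shSETD7 and shCTL at site 16, the combination and GSK2879552 at sites 11, 13 and 14, and shCTL and DMSO at site 1. The locus held 16 sites with peaks merged within 200 bp, 15 within 1 kb, 12 in the higher-scoring 50% and 15 with equal-sized FOXA1 lists. No paired analysis was possible because each group has 1 library. Depth, unknown here, limits every absence.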

Other observations

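The peaks nearest the window were partly shared by the lists. Above it, the first FOXA1 peak of all 6 lists was at the same place, from 43025675 to 43026040 with shSETD7 and from 43025741 to 43026118 with DMSO, 65.7 kb after the window in both. Below it the lists differed, with the nearest peak from 42718043 to 42718548 with shSETD7, from 42718141 to 42718542 with shCTL and from 42737034 to 42737337 with vehicle. In LNCaP it ran from 42738694 to 42739001 with the combination, from 42738696 to 42738930 with GSK2879552 and from 42718144 to 42718562 with DMSO.

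In FOXA1 lists shortened to 63952 peaks each, site 11 had a percentile of 77.5 with shSETD7 and was no longer a peak with shCTL. There, site 12 had 79.6 with shSETD7 and 40.7 with shCTL, and site 17 had 65.1 with the combination, 38.5 with GSK2879552 and 67 with DMSO. These are values of single libraries, and no difference between conditions was tested.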
